A study of Mus musculus with 12 samples.

Results

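Nanos2 and 7 genes used as marks of male fetal germ cells and spermatogonia (Fgfr3, Gfra1, Ret, Etv5, Zbtb16, Foxo1 and Id4) were followed in germ cells of mouse embryos at E13.5. They were taken by symbol from the gene table, where all 8 were found among 37991 rows. The 12 libraries, each from the sorted primordial germ cells of 1 embryo on a C57BL/6 background, were 3 male Ezh2 conditional knockout (CKO), 4 male control (Ctrl), 2 female CKO and 3 female Ctrl embryos. Ezh2 encodes the main histone methyltransferase of Polycomb repressive complex 2. The labels give neither the Cre driver, the deleted exons, the genotype of the Ctrl embryos, the litters nor the marker used for sorting, so it cannot be told from them what alleles the Ctrl embryos share with the CKO embryos.

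At this stage germ cells in a fetal testis stop dividing and become prospermatogonia, while those in a fetal ovary enter meiosis. Nanos2 encodes an RNA-binding protein of male fetal germ cells that brings target transcripts to the CCR4-NOT deadenylase complex and keeps the meiotic programme low. Ret with its co-receptor Gfra1 receives GDNF, Fgfr3 receives fibroblast growth factors, Etv5 is a transcription factor downstream of both kinds of receptor, and Zbtb16, Foxo1 and Id4 are nuclear regulators of spermatogonial stem cells after birth.

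The name of this group of genes did not describe all of its members in these cells. Nanos2, Etv5 and Foxo1 were higher in male Ctrl than in female Ctrl germ cells, but Fgfr3 and Id4 were lower in males, and Gfra1 and Zbtb16 stayed below 1 CPM (read counts scaled to library size) in every library. In CKO embryos Fgfr3 was lower than in Ctrl among females, and edgeR called none of the other members in either sex in the model of all 12 libraries, although other fits called Nanos2 or Etv5 in females. Nanos2 ranged from 0.33 to 23.8 CPM among the 4 male Ctrl embryos.

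Library totals lay between 26180685 and 35299206 counts, and summed CPM of 10 germ cell markers from 5794 to 6475. Ezh2 itself averaged 84.4 ± 1.79 CPM in male CKO (SD, n = 3) and 122 ± 19.9 CPM in male Ctrl (n = 4), a log2 fold change of -0.53 that did not pass (edgeR adjusted p = 0.0527). Its mean was 95.6 ± 15.7 CPM for female CKO (n = 2) and 154 ± 10.9 CPM for female Ctrl (n = 3), with a log2 fold change of -0.68 (adjusted p = 0.02). The male difference passed in DESeq2 (adjusted p = 0.00656), in limma-voom (0.00753), without a filter on low counts (0.0295), with a filter at 5 CPM (0.0423) and without male Ctrl 1 (0.0162), and the female one was lost without female CKO 1 (0.165) or female Ctrl 3 (0.0779). These counts cover the whole gene. Markers of Sertoli cells, the supporting cells of the testis, had counts for 10 of 10 genes in every male library and for 6 to 8 of 10 in female libraries, where Amh and Cst9 were at 0. Their summed level was 25.6 to 55.6 CPM in male CKO, 24.9 to 59.2 in male Ctrl, 15.04 to 17.6 in female CKO and 14.3 to 19.4 in female Ctrl. Most of the female sums was Aard, at 10.2 to 13.6 CPM, a gene at 7.87 to 19.9 CPM in males. Sox9 was at most at 0.240 CPM in females and at 1.42 to 6.04 CPM in males. Markers of granulosa cells, the supporting cells of the ovary, had counts for 6 or 7 of 7 genes and summed to 4.63 to 6.26 CPM in male CKO, 5.86 to 14.8 in male Ctrl, 18.7 to 22.2 in female CKO and 16.1 to 28.6 in female Ctrl, with Foxl2 at most at 0.146 CPM in males and 1.11 in females. In 2 CKO libraries red blood cell markers stood apart, at 18.3 CPM in male CKO 1 and 16.2 in female CKO 1, against at most 2.09 in the other 10. Markers of gonadal interstitium reached 30.2 CPM in female CKO 2 and at most 9.15 in female Ctrl. Endothelial markers were at 5.76 and 7.13 CPM in female CKO and 3.07 to 4.60 in female Ctrl. The part of these other cells in the differences between groups was not tested. In bulk libraries such as these, fewer cells of a type and less RNA per cell cannot be told apart.

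The 250 bases before the start of Nanos2, Fgfr3, Etv5 and Id4 are shown because these are the 4 members that differed between the sexes in both genotypes. They are RefSeq sequences on build GRCm38.p6, at chr7:18987274-18987523 (+ strand) for Nanos2, chr5:33721474-33721723 (+ strand, the first of 2 listed starts) for Fgfr3, chr16:22439571-22439820 (- strand, the first of 2 listed starts) for Etv5 and chr13:48260866-48261115 (+ strand) for Id4. Each is written 5′ to 3′, and capitals mark the dinucleotide CG, which reads the same on both strands.
Nanos2: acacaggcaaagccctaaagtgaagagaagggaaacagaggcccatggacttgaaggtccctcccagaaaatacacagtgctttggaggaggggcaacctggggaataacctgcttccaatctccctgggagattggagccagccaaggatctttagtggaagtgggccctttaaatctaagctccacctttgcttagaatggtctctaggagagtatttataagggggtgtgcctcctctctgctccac
Fgfr3: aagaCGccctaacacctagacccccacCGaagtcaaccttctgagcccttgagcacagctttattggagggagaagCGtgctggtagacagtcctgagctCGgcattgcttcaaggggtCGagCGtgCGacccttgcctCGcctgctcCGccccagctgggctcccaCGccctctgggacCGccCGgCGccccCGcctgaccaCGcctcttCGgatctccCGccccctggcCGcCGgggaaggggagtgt
Etv5: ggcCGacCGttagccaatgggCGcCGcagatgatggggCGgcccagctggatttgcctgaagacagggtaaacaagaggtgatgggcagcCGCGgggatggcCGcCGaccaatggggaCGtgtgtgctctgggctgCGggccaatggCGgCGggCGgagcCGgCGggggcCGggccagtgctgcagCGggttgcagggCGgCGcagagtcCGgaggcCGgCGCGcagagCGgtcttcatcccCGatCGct
Id4: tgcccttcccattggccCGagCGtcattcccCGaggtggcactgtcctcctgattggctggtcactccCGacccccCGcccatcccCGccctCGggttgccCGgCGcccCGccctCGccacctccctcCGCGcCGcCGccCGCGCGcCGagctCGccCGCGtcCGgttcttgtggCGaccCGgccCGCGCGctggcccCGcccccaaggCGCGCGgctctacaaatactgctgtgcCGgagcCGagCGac

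The window of Nanos2 held no CG, which was the case for 7.87% of the 32851 windows of the same length, whose median was 6. The windows of Fgfr3, Etv5 and Id4 held 19, 27 and 35, numbers reached or passed in 19.7%, 8.56% and 2.97% of all windows. At their second listed starts Fgfr3 had 24 and Etv5 18. Gfra1 had 10 and Foxo1 20. Ret and Zbtb16 had no window. Windows with 18 or more CG belonged to Fgfr3 and Id4, which were lower in males, and to Etv5 and Foxo1, which were higher in male Ctrl. Exons of Nanos2, Fgfr3, Gfra1, Foxo1 and Id4 overlap annotated transcripts of the opposite strand, and reads of both cannot be told apart in these unstranded libraries. No methylation or histone data were analysed here.

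Nanos2 (ENSMUSG00000051965, chromosome 7) was transcribed in male germ cells of both genotypes. It had 6.39, 8.98 and 11.0 CPM in the male CKO libraries, against 23.8, 0.33, 2.65 and 16.7 CPM in male Ctrl libraries 1 to 4. The 3 CKO values lay inside the range of the Ctrl values, 2 of which were higher and 2 lower. The log2 fold change between the genotypes was -0.31 (SE 0.87, 95% interval -2.2 to 1.58, edgeR adjusted p = 0.904). This interval leaves room for a change of several-fold either way, and the fold change was 0.42 without male Ctrl 1.

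In females Nanos2 had 22 and 14 counts in the CKO libraries (0.644 and 0.421 CPM), against 0, 1 and 1 counts in the Ctrl libraries (0, 0.0313 and 0.0343 CPM). A count of 0 in female Ctrl 1 allows up to 0.0921 CPM. Both CKO values were above all 3 Ctrl values. The summed counts, 36 in CKO and 2 in Ctrl, correspond to a ratio of 25.02 after scaling to library size, with a 95% interval of 6.44 to 214.5 that covers counting error only (exact conditional binomial). Across embryos the difference did not pass the test in the model of all 12 libraries, where the log2 fold change was 4.4 with an SE of 1.99 (edgeR adjusted p = 0.209). It passed in DESeq2 (adjusted p = 0.0427) and in an edgeR fit of the female libraries alone (adjusted p = 0.0169). The difference between the male and the female CKO effect was -4.71 on the log2 scale and did not pass either (SE 2.21, edgeR adjusted p = 0.599).

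Between the sexes Nanos2 was higher in males in both genotypes. All 4 male Ctrl values were above all 3 female Ctrl values, and the summed counts were 1343 in male Ctrl and 2 in female Ctrl, a ratio of 546 after scaling (95% counting interval 151 to 4516). The fitted log2 fold change was 8.74 (SE 1.6, edgeR adjusted p = 0.00112), and it was not called in limma-voom (6.76, adjusted p = 0.0622). Among CKO embryos the difference was smaller, 4.03 (SE 1.3, edgeR adjusted p = 0.0288), with all 3 males above both females. That call was lost without male CKO 3 (adjusted p = 0.0556), female CKO 1 (0.143) or female CKO 2 (0.167), without a filter on low counts (0.109) and in limma-voom (0.0958).

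**Figure D1:**
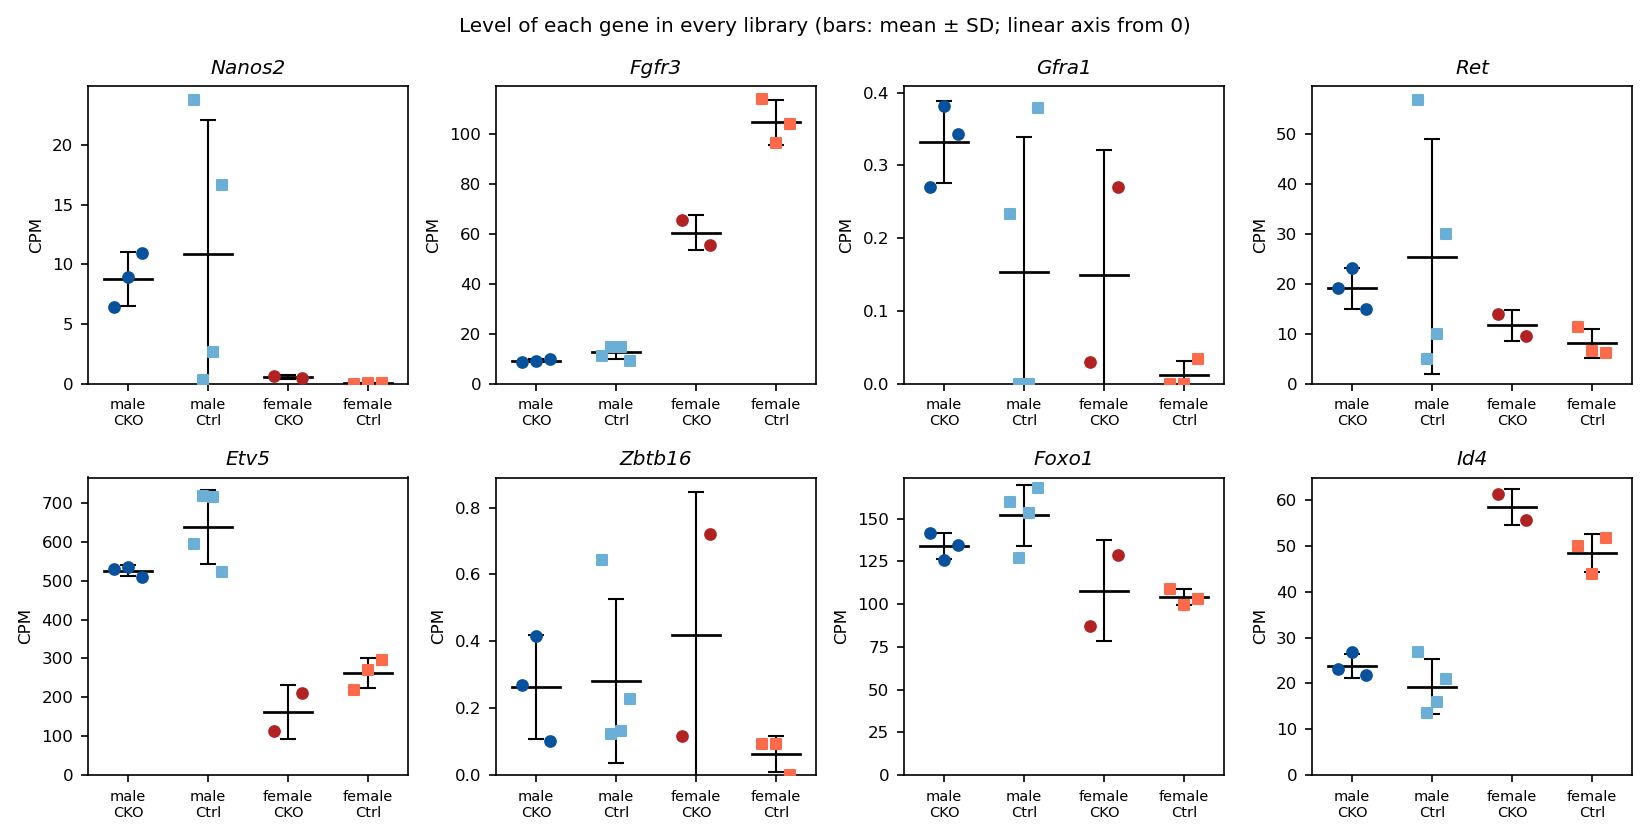
CPM of the 8 genes in every library on linear axes from 0, with male CKO, male Ctrl, female CKO and female Ctrl from left to right; bars are group means with 1 SD. The 4 male Ctrl points of Nanos2 spread from 0.33 to 23.8 CPM and those of Ret from 4.91 to 56.9 CPM, while Fgfr3 and Id4 lie higher in females.

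Fgfr3, the receptor member for fibroblast growth factors, was lower in male than in female germ cells and lower in female CKO than in female Ctrl. Its levels were 8.66, 8.87 and 9.73 CPM in male CKO and 11.2, 14.7, 14.8 and 9.12 CPM in male Ctrl. Female libraries had 65.4 and 55.5 CPM in CKO and 114, 96.3 and 104 CPM in Ctrl. Neither female group overlapped the other, whereas in males 1 Ctrl library lay between the CKO values.

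In females Fgfr3 averaged 60.5 ± 7.02 CPM in CKO (SD, n = 2) and 105 ± 8.94 CPM in Ctrl (n = 3). The log2 fold change was -0.79, with an SE of 0.19 and an edgeR adjusted p of 0.0246. The direction was lower whichever female library was left out, but the call was lost each time. The adjusted p was 0.0777 when CKO 1 was left out and 0.182 for CKO 2, and it was 0.0733, 0.052 and 0.0761 when Ctrl 1, Ctrl 2 or Ctrl 3 was left out. In males Fgfr3 averaged 9.09 ± 0.568 CPM in CKO (n = 3) and 12.5 ± 2.79 CPM in Ctrl (n = 4), which did not pass the test (-0.46, SE 0.16, edgeR adjusted p = 0.171). The CKO effects of the sexes differed by 0.34 (95% interval -0.19 to 0.86, edgeR adjusted p = 0.719).

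The sex difference of Fgfr3 was -3.07 on the log2 scale in Ctrl (SE 0.16, edgeR adjusted p = 4.37e-08) and -2.73 in CKO (SE 0.19, adjusted p = 7.35e-07), males lower in both, and it was called in every alternative tried. This made Fgfr3 8.41-fold lower in male than in female Ctrl germ cells.

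Ret, the signalling receptor for GDNF, was present in both sexes and varied widely among embryos. It had 19.0, 23.2 and 14.9 CPM in male CKO and 56.9, 4.91, 9.99 and 29.9 CPM in male Ctrl libraries 1 to 4. Female libraries had 13.9 and 9.47 CPM in CKO and 11.4, 6.57 and 6.14 CPM in Ctrl. The genotypes overlapped in both sexes, and male Ctrl 2 was lower than all 3 female Ctrl libraries.

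None of the comparisons of Ret passed the edgeR test in the model of all libraries. The CKO effect was -0.42 in males (SE 0.63, edgeR adjusted p = 0.799) and 0.54 in females (SE 0.76, adjusted p = 0.719). The male fold change was 0.35 without male Ctrl 1. The sex difference in Ctrl was 1.66 (SE 0.67, adjusted p = 0.068), and it passed without male Ctrl 2 (adjusted p = 0.00947), without male Ctrl 3 (0.0321) and in DESeq2 (0.0456). Among CKO embryos it was 0.70 (SE 0.77, edgeR adjusted p = 0.503), with all 3 males above both females, and it was called in an edgeR fit of the CKO groups alone (0.70, adjusted p = 0.0358).

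Gfra1, the co-receptor that binds GDNF for Ret, was close to absent. It had 8, 11 and 10 counts in male CKO libraries, against 8, 0, 0 and 10 for male Ctrl. Female CKO libraries had 1 and 9 counts, against 0, 0 and 1 for female Ctrl. The highest level was 0.381 CPM, and counts of 0 allow up to 0.124 CPM in male Ctrl 2 and 0.0992 CPM in male Ctrl 3. Its edgeR adjusted p lay between 0.1 and 0.776 in the 5 comparisons, and the sex difference in Ctrl passed only without male Ctrl 2 (adjusted p = 0.0497).

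Etv5, the transcription factor downstream of both receptors, was the most abundant member per kilobase of exon. It had 531, 536 and 510 CPM in male CKO and 594, 717, 716 and 523 CPM in male Ctrl. Female libraries had 112 and 211 CPM in CKO and 220, 270 and 295 CPM in Ctrl. Males were above females without overlap in both genotypes, and in females both CKO values were below all 3 Ctrl values.

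The sex difference of Etv5 was 1.29 on the log2 scale in Ctrl (SE 0.19, edgeR adjusted p = 0.000134) and 1.70 in CKO (SE 0.23, adjusted p = 9.61e-05), males higher, in every alternative tried. The CKO effect was -0.28 in males (SE 0.18, edgeR adjusted p = 0.477) and -0.70 in females (SE 0.22, adjusted p = 0.0718). In females its size varied with the CKO embryo left out: without female CKO 2 it was -1.21 and passed (adjusted p = 0.0163), and without female CKO 1 it was -0.31. It also passed in limma-voom (0.0275) and DESeq2 (0.0322). The male and female effects differed by 0.42 (95% interval -0.19 to 1.02, edgeR adjusted p = 0.702).

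Foxo1, a forkhead factor held out of the nucleus by PI3K and AKT signalling, differed little between groups. It had 142, 126 and 135 CPM in male CKO and 159, 127, 153 and 168 CPM in male Ctrl. Female libraries had 87.0 and 129 CPM in CKO and 109, 99.7 and 103 CPM in Ctrl. Male Ctrl lay above female Ctrl without overlap, by 0.55 on the log2 scale (SE 0.13, edgeR adjusted p = 0.00442). The same comparison among CKO embryos gave 0.31 (SE 0.15, adjusted p = 0.126), and 0.62 with a call without female CKO 2 (adjusted p = 0.0119). The CKO effects were -0.18 in males (95% interval -0.46 to 0.1) and 0.05 in females (-0.28 to 0.38), and neither passed (edgeR adjusted p = 0.525 and 0.874).

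Id4, an inhibitor of basic helix-loop-helix factors that marks spermatogonial stem cells after birth, was lower in male germ cells. It had 23.1, 26.8 and 21.8 CPM in male CKO and 26.9, 13.49, 15.9 and 21.0 CPM in male Ctrl. Female libraries had 61.4 and 55.8 CPM in CKO and 49.98, 43.8 and 51.7 CPM in Ctrl. No male value reached the lowest female value. The sex difference was -1.32 in Ctrl (SE 0.19, edgeR adjusted p = 0.000131) and -1.29 in CKO (SE 0.23, adjusted p = 0.000627), called in every alternative tried. The CKO effects were 0.30 in males (SE 0.19, adjusted p = 0.467) and 0.27 in females (SE 0.23, adjusted p = 0.507), both not called.

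Zbtb16, a zinc finger factor of undifferentiated spermatogonia, had 8, 12 and 3 counts in male CKO libraries, against 22, 3, 4 and 6 for male Ctrl. Female CKO libraries had 4 and 24 counts, against 3, 3 and 0 for female Ctrl. The highest level was 0.722 CPM, in female CKO 2. None of its 5 comparisons was called, with edgeR adjusted p between 0.112 and 0.964.

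**Figure D2:**
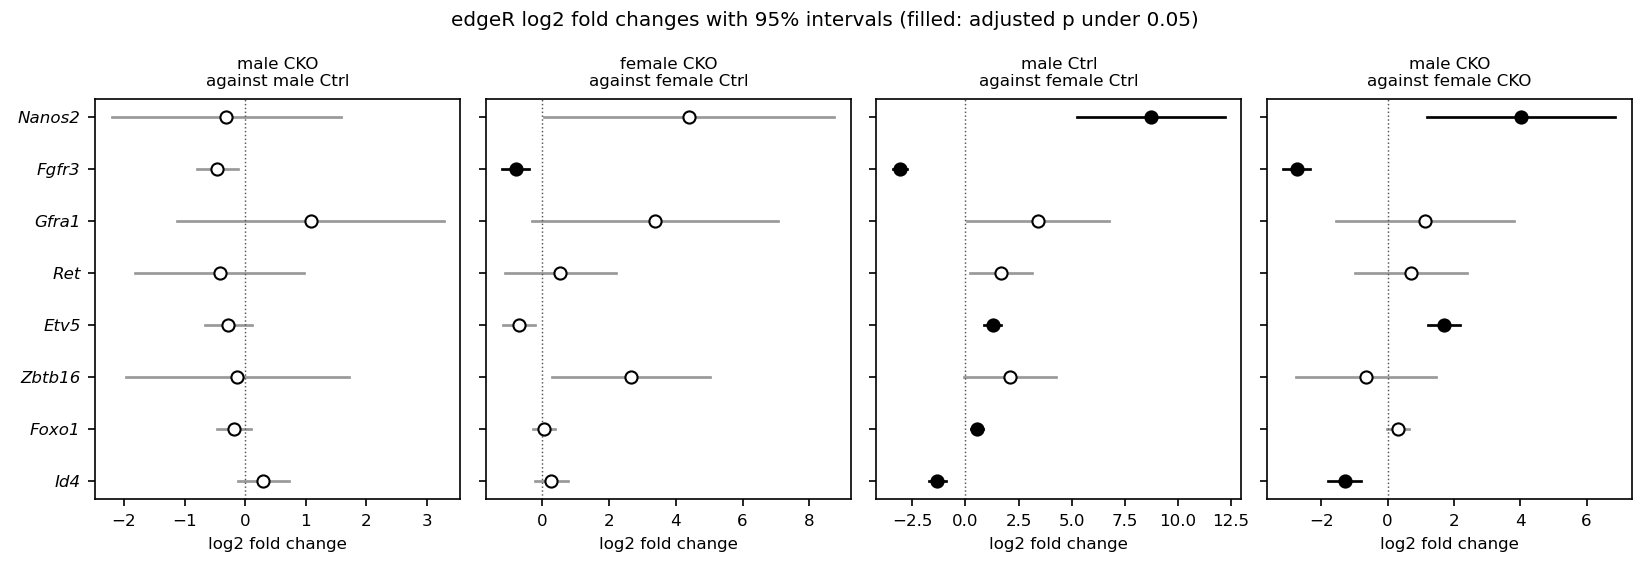
Log2 fold changes of the 8 genes (points) with 95% intervals (lines) from edgeR in 4 comparisons, filled where the adjusted p was under 0.05; each panel has its own horizontal scale. Intervals of Nanos2, Gfra1 and Zbtb16 are wide, and in the CKO comparisons only Fgfr3 in females, at -0.79, is filled.

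Counted together, 0 of 8 members were called in male CKO against male Ctrl, where 1.7% of the 16708 tested genes were called (1.2% higher and 0.497% lower). There 1 member had an unadjusted p under 0.05, as had 16.7% of all genes, and limma-voom and DESeq2 called 0 members as well. In female CKO against female Ctrl 1 of 8 was called, against 7.17% of all genes (3.01% higher and 4.16% lower), and 0 of 8 differed between the sexes in its CKO effect, against 0.0% of all genes (0 genes in edgeR and in limma-voom, 61 in DESeq2, and 1401, or 8.39%, at an unadjusted p under 0.05). These shares are near those of all genes. Between male and female Ctrl 3 members were higher and 2 lower in males, against 39.5% of all genes called (19.4% higher and 20.1% lower). Between male and female CKO 2 were higher and 2 lower, against 38.4% (19.0% higher and 19.4% lower).

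Without overlap between groups were 0 of 8 members in male CKO against male Ctrl, against 15.0% of all genes. The numbers were 5 of 8 (44.6% of all genes) in female CKO against female Ctrl, 6 of 8 (43.4%) in male against female Ctrl and 5 of 8 (64.2%) in male against female CKO. The median log2 fold change of the 8 members was -0.23 for the male CKO comparison (-0.02 over all genes), 0.41 for the female one (0.00), 1.47 between the sexes in Ctrl (0.00) and 0.51 in CKO (-0.03). The CKO comparisons of the 2 sexes share no libraries, but each sex comparison shares its libraries with both.

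Levels of different genes can be set side by side only per length. Mean CPM per kilobase of exon was highest for Etv5, at 128 in male CKO, 155 in male Ctrl, 39.4 in female CKO and 63.8 in female Ctrl. Foxo1, with 15.5, 17.5, 12.4 and 11.99 in the same groups, was second in males, whereas in females Id4 (15.2 in CKO and 12.6 in Ctrl) and, in Ctrl, Fgfr3 (14.7) were above it. Nanos2 stood at 5.62 and 6.95 in male CKO and male Ctrl, near Id4 at 6.21 and 5.02, and its spread among male Ctrl embryos covers that of Id4. In females Nanos2 was at 0.341 in CKO and 0.0140 in Ctrl, below Fgfr3 (8.45 and 14.7), Id4 and Ret (1.73 and 1.19). Gfra1 and Zbtb16 were under 0.1 in all 4 groups.

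**Figure D3:**
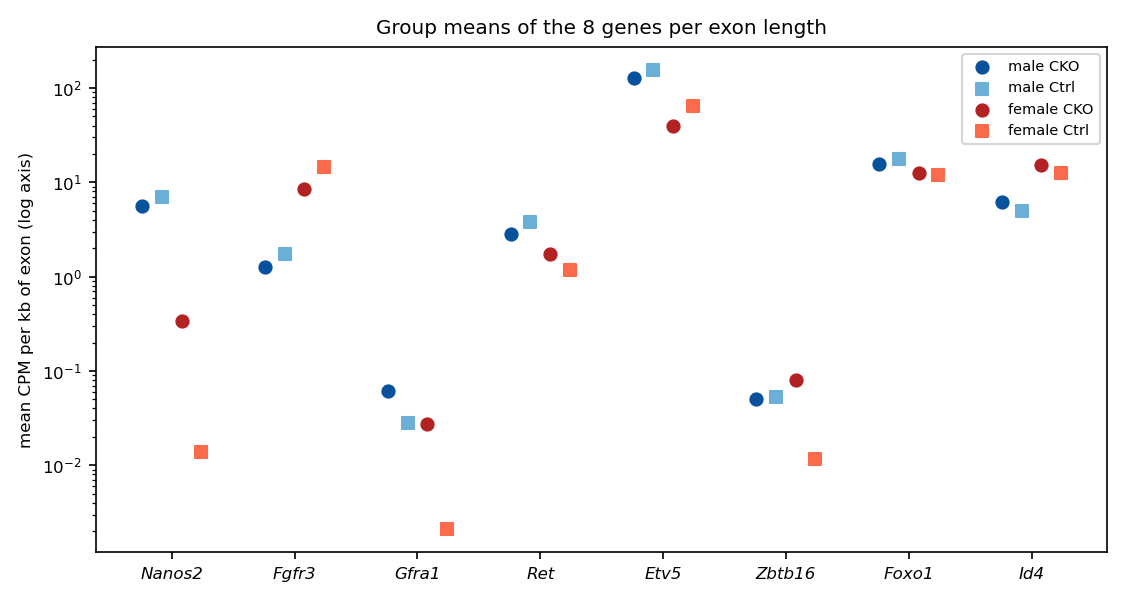
Mean CPM per kilobase of exon of the 8 genes in the 4 groups, on a log axis, with 1 point per group and no error bar. Etv5 is highest in every group, and Nanos2 in females lies far below Nanos2 in males.

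The spread of Nanos2 among the male Ctrl embryos was among the widest of all genes. The SD of log2(CPM + 1) over the 4 libraries was 1.98, which ranked 10th from the widest of the 9894 genes averaging 5 CPM or more in that group, whose median was 0.179. Ret, with 1.48, ranked 29th. In the 3 male CKO libraries the same measure was 0.351 for Nanos2 and 0.306 for Ret, ranks 552 and 875 of 9959. Ranks rest on 4 and 3 embryos and carry no test.

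The male Ctrl embryos fell in the same order for several members. Nanos2, taken as the reference, was highest in library 1, then 4, then 3, and lowest in 2. Ret, Id4 and Zbtb16 shared this order, as did 10.7% of all tested genes. For Zbtb16 it rests on 22, 6, 4 and 3 counts, near the floor of 3 counts, so its order is uncertain. Gfra1 had counts only in libraries 1 and 4. Fgfr3 and Etv5 were instead higher in libraries 2 and 3 than in 1 and 4. Ezh2 took the reverse order, from 144 CPM in library 2 to 96.6 CPM in library 1, as did 10.2% of all tested genes. So did Lefty2, with 393, 808, 690 and 580 CPM, and Tdgf1, with 15.7, 31.1, 27.4 and 21.9 CPM in libraries 1 to 4. Grb2, Cnot7, Pik3cb and Id3 also took the reverse order. Other genes of the Nodal pathway, to which Lefty2 and Tdgf1 belong, did not. Lefty1 was highest in library 4 (260 CPM) and lowest in library 2 (137 CPM). Nodal ran from 61.9 CPM in library 4 to 55.25 CPM in library 1, with 3 above 2.

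Summed markers of some other cells, though not most of the single genes, took the order of Nanos2 in these 4 libraries. Leydig cell markers summed to 7.005, 1.16, 1.95 and 2.61 CPM in libraries 1 to 4, and granulosa cell markers to 14.8, 5.86, 7.51 and 9.84 CPM. Both sums were thus highest in library 1, then 4, then 3, and lowest in 2, as Nanos2 was. Among granulosa markers Rspo1 had this order (9.37, 1.03, 2.98 and 7.11 CPM in libraries 1 to 4). Irx3 (0.0292, 1.20, 0.926 and 0.681 CPM) and Wnt4 (0.350, 0.907, 0.463 and 0.189 CPM) were instead highest in library 2. Among Leydig markers Star was highest in library 4 (2.35 CPM, against 1.99 CPM in library 1), whereas Cyp17a1 had counts in library 1 only. Sertoli cell markers summed to 59.2, 37.2, 28.8 and 24.9 CPM, which is another order. Among them Sox9 had the order of Nanos2 (6.04, 2.23, 2.28 and 2.8 CPM). Wt1 had it too (1.87, 0.742, 1.36 and 1.59 CPM). Amh, Gata4, Aard, Dhh, Ptgds and Cst9 were also highest in library 1, with other orders below it. Nr0b1 took the reverse order (2.86, 12.6, 6.22 and 3.18 CPM), and Cldn11 was highest in library 4. Total counts were 35299206, 26180685, 31718918 and 27558977, again another order. The part of these values in the spread of Nanos2 was not tested.

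**Figure D4:**
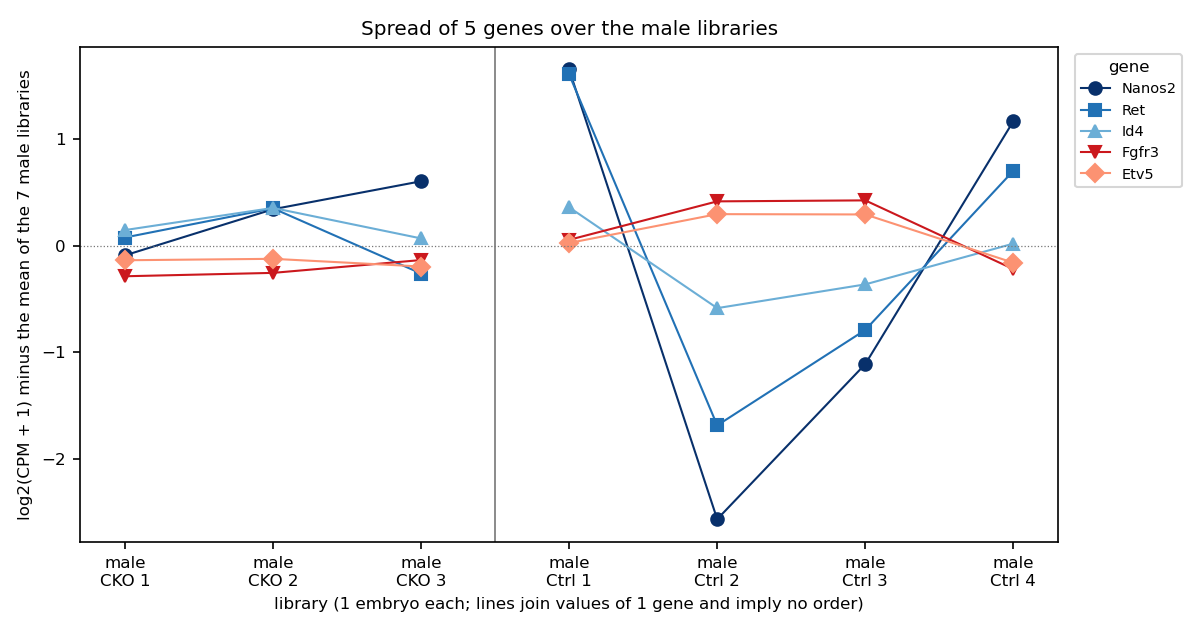
Deviation of log2(CPM + 1) of 5 genes from each gene's mean over the 7 male libraries, CKO on the left and Ctrl on the right; lines join values of 1 gene and imply no order of embryos. Nanos2, Ret and Id4 are high in Ctrl 1 and 4 and low in Ctrl 2 and 3, where Fgfr3 and Etv5 are higher.

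Profiles most like that of Nanos2 were sought among 10471 genes by the root mean square (RMS) difference of log2(CPM + 1) over the 12 libraries, each profile centred on its own mean. The 5 nearest were Cbr3 (0.419), Egr4 (0.425), Krt17 (0.484), Fbxo41 (0.498) and Pou6f1 (0.499), beside an RMS of 1.69 for the Nanos2 profile itself. Cbr3, a carbonyl reductase gene, had 5.45, 6.69 and 7.94 CPM in male CKO and 13.4, 1.11, 3.01 and 9.88 CPM in male Ctrl, and at most 0.344 CPM in females. Egr4, a zinc finger factor gene, had 11.3, 10.4 and 13.7 CPM in male CKO, and 55.8, 1.07, 5.19 and 19.0 CPM in male Ctrl. Krt17, a keratin gene, had 1.76, 5.89 and 4.30 CPM in male CKO, 16.4, 0.536, 2.28 and 8.36 CPM in male Ctrl and no count in any female library. All 5 genes shared the order of the male Ctrl libraries with Nanos2. They were chosen for likeness to Nanos2 over these same libraries, so the shared order is no separate result. All profiles share the same libraries, so this likeness is a description.

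The nearest profiles to Etv5 were Dusp6, a MAP kinase phosphatase gene (RMS difference 0.134), and Pml (0.181), beside 0.803 for Etv5 itself. Dusp6 averaged 73.7 CPM in male CKO, 86.1 in male Ctrl, 20.7 in female CKO and 33.6 in female Ctrl. Fgfr3 was nearest to Phf19 (0.275) and Irx3 (0.314), beside 1.45 for itself. Irx3 is on the granulosa marker list, with means of 0.297 CPM in male CKO, 0.708 in male Ctrl, 5.92 in female CKO and 9.23 in female Ctrl. Phf19, which encodes a Polycomb-associated protein, averaged 23.3, 26.5, 144 and 164 CPM in these groups. Ret was nearest to Ccdc106 (0.352) and Nfasc (0.404), Foxo1 to Ccnt1 (0.099) and Taf1c (0.101), and Id4 to Rdh10 (0.143) and Arhgdig (0.168). Gfra1 (Msantd3 and Nrbf2) and Zbtb16 (Dync1li1 and Dapk3) have nearly flat profiles, for which the nearest genes carry little information.

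Of 13 tested genes of 16 listed for the GDNF pathway, 0 were called in male CKO by edgeR, limma-voom or DESeq2. Among all genes edgeR called 1.7% there. An unadjusted p under 0.05 was found for 1 of the 13, against 16.7% of all genes. In female CKO 3 of the 13 were called, against 7.17% of all genes. Nrtn, a GDNF family ligand gene, rose (0.58, adjusted p = 0.0253) while the adaptor genes Grb2 (-0.55, adjusted p = 0.00879) and Shc1 (-0.60, 0.0235) fell. Without female CKO 2 the calls of Grb2 (adjusted p = 0.0814) and Shc1 (0.207) were lost. That of Shc1 was also lost without Ctrl 1 (0.0621), Ctrl 2 (0.0597) or Ctrl 3 (0.0666), and that of Nrtn without any 1 of the 5 female libraries (adjusted p from 0.0595 to 0.144). Between male and female Ctrl 5 of the 13 were called, against 39.5% of all genes. Shc1 was higher in males (0.73, edgeR adjusted p = 0.000275) and 4 genes were lower, among them Nrtn (-1.06, 1.48e-05) and the adaptor gene Dok4 (-2.18, 1.65e-05).

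Among receptors, ligands and feedback targets of the fibroblast growth factor pathway, 17 of 21 were tested. Between male and female Ctrl 8 were higher in males and 2 lower, against 19.4% and 20.1% of all genes, with a median log2 difference of 0.53 over the 17 genes, beside 0.00 over all genes. Etv1, a close relative of Etv5, was at 67.1 to 112 CPM in male Ctrl and at 2.49 to 4.46 CPM in female Ctrl (4.81, SE 0.3, edgeR adjusted p = 1.69e-07). Dusp4, a MAP kinase phosphatase gene, was also higher in males (1.77, adjusted p = 0.000101), whereas Dusp5, another one, was lower (-2.42, adjusted p = 2.46e-07). Male and female CKO gave 9 higher and 2 lower, against 19.0% and 19.4% of all genes. Among the higher was Fgfr2, at 104 to 164 CPM in male CKO and 24.9 and 37.4 CPM in female CKO (2.18, edgeR adjusted p = 2.01e-05).

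In female CKO against female Ctrl 3 of the 17 tested genes of that list were called, against 7.17% of all genes (4.16% lower). All 3 were lower: Dusp4 (-1.49, SE 0.3, edgeR adjusted p = 0.0133), Fgfr2 (-0.92, SE 0.22, 0.0267) and Spred2, a pathway inhibitor gene (-0.66, SE 0.18, 0.0425). Dusp4 had 5.41 and 10.7 CPM in CKO and 15.3, 26.9 and 25.7 CPM in Ctrl. Without female CKO 1 the call of Dusp4 was lost (adjusted p = 0.108), as was that of Fgfr2 (0.207), which was also lost without Ctrl 2 (0.0645) or Ctrl 3 (0.0971). The call of Spred2 was lost without any 1 of the 5 female libraries (0.0599 to 0.303). In males 0 of 17 were called by edgeR, limma-voom or DESeq2, where edgeR called 1.7% of all genes. An unadjusted p under 0.05 was found for 4 of the 17, against 16.7% of all genes. Fgf9, a ligand gene of the fetal testis, had 1.78 and 1.90 CPM in female CKO and 0.522, 0.688 and 0.480 CPM in female Ctrl, which edgeR did not call in the model of all libraries (1.70, SE 0.61, adjusted p = 0.109). It passed in limma-voom (adjusted p = 0.0381) and in an edgeR fit of the female groups alone (0.0308). Fgf9 was lower in male than in female CKO (-2.24, adjusted p = 0.0123), a call that was lost without male CKO 2 (0.05), female CKO 1 (0.0509) or female CKO 2 (0.053).

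Transcripts that Nanos2 is known to keep low in male germ cells were lower in males than in females. Of 10 listed and tested, 9 were lower in male than in female CKO and 9 in male than in female Ctrl, against 19.4% and 20.1% of all genes, with median log2 differences of -2.12 and -1.54, beside -0.03 and 0.00 over all genes. Stra8, the gate to meiosis, had 4.67, 9.74 and 5.02 CPM in male CKO, 1.81, 1.07, 2.22 and 3.56 CPM in male Ctrl, 579 and 300 CPM in female CKO and 296, 276 and 212 CPM in female Ctrl. The sex difference of Stra8 was -6.91 in Ctrl (SE 0.39, edgeR adjusted p = 2.01e-07) and -6.09 in CKO (SE 0.42, adjusted p = 2.17e-06). All 3 male CKO values were above all 4 male Ctrl values, yet the difference of 1.58 (SE 0.38) did not pass (edgeR adjusted p = 0.0586). It passed without male CKO 1 (0.0497) or male Ctrl 4 (0.0411), with scaling by library size alone (0.0491) and in DESeq2 (0.0112).

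Male Ctrl 2, with 0.33 CPM of Nanos2, was the lowest of the 4 male Ctrl libraries in 8 of the 10 genes of the list and in 31.4% of all tested genes. Among the 8 were Stra8, Meioc (6.72 CPM, against 14.7 to 19.0 in the other 3) and Rec8 (3.05 CPM, against 4.66 to 16.7), whereas Sycp3 was lowest in library 3 and second highest in library 2 (28.3 CPM). Meioc and Rec8, genes of meiotic entry and of meiotic cohesin, were lower in male than in female Ctrl (log2 differences of -3.99 and -3.89, edgeR adjusted p = 3.8e-06 and 3.24e-05). In female CKO 1 gene of the list rose, Sycp3 of the synaptonemal complex (1.10, SE 0.24, edgeR adjusted p = 0.0185), where 3.01% of all genes were called higher. Sycp3 had 216 and 102 CPM in CKO and 70.1, 87.0 and 65.5 CPM in Ctrl. Without female CKO 1 the value was 0.46 (adjusted p = 0.266), and the call was also lost without Ctrl 1 (0.0551) or Ctrl 3 (0.0728). In male CKO 0 of the 10 were called by edgeR, against 1.7% of all genes, with 1 called by limma-voom and 2 by DESeq2. An unadjusted p under 0.05 was found for 3 of the 10, against 16.7% of all genes.

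**Figure D5:**
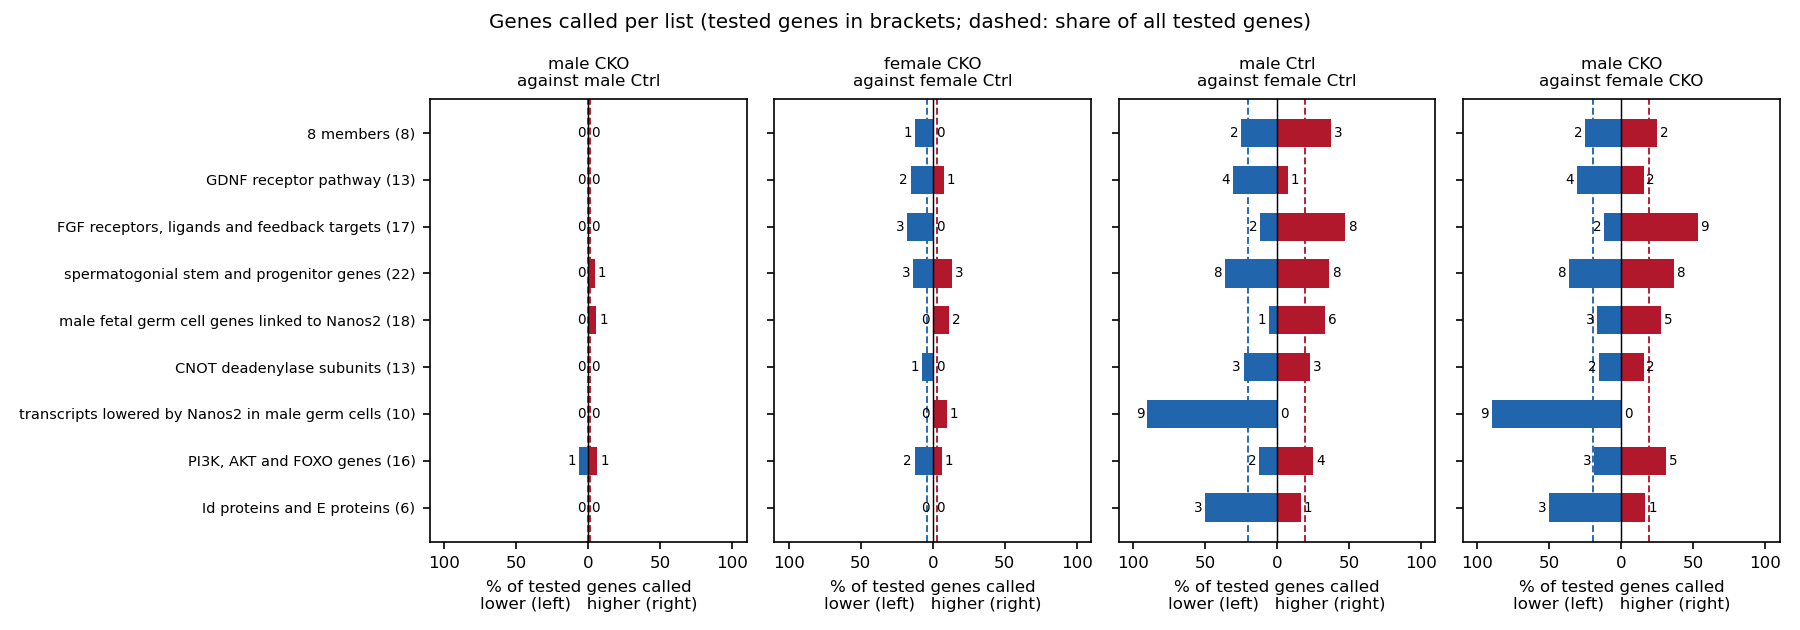
Share of tested genes called lower (left, blue) and higher (right, red) in edgeR per gene list and comparison, with counts beside the bars, numbers tested in brackets and dashed lines at the share of all tested genes. Of the transcripts lowered by Nanos2, 9 of 10 are lower in males in both sex comparisons, whereas the CKO comparisons hold 0 to 3 calls in a direction.

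Of 18 genes of male fetal germ cells linked to Nanos2, 6 were higher and 1 lower in male than in female Ctrl, 7 in all, a share near the 39.5% of all genes called there. The genes of the Nodal pathway had the smallest p-values among them. Lefty2, an inhibitor gene of the pathway, had 393 to 808 CPM in male Ctrl and at most 1.04 CPM in female Ctrl (9.60, SE 0.34, edgeR adjusted p = 1.02e-09). Tdgf1, its co-receptor gene, Lefty1 and Nodal itself were also higher in males, by 8.07, 7.57 and 3.59 on the log2 scale (edgeR adjusted p = 3.8e-07, 5.36e-07 and 7.96e-07). The CKO effect on Nodal was -0.39 in males and -0.53 in females, neither called (edgeR adjusted p = 0.434 and 0.321).

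Of the 18 genes of that list 1 was called in male and 2 in female CKO, against 1.7% and 7.17% of all genes. Piwil4, which encodes a nuclear partner of piRNAs in fetal male germ cells, was the only one called in both sexes. It had 13.7, 19.9 and 14.9 CPM in male CKO and 11.8, 5.94, 7.21 and 6.70 CPM in male Ctrl (1.02, SE 0.23, edgeR adjusted p = 0.0397). In females it had 24.6 and 21.4 CPM in CKO and 12.1, 9.63 and 10.7 CPM in Ctrl (1.09, SE 0.27, adjusted p = 0.0283). Both rises were without overlap between groups, as were 15.0% of all genes in males and 44.6% in females. The male call was lost without CKO 2 (0.19), CKO 3 (0.116), Ctrl 3 (0.0977) or Ctrl 4 (0.0912), and the female call without any 1 of the 5 female libraries (0.0518 to 0.149). Mael, a further piRNA pathway gene, rose in female CKO to 600 and 464 CPM, against 239, 236 and 216 CPM in Ctrl (1.21, edgeR adjusted p = 0.0127), with the call lost without CKO 1 (0.104) or Ctrl 3 (0.0504). Dnmt3l, the cofactor of de novo DNA methylation, stayed at or below 0.701 CPM and was not called in either sex (edgeR adjusted p = 0.738 in males and 0.95 in females).

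Of the spermatogonial stem and progenitor genes 22 of 25 were tested. In male CKO 1 was called, against 1.7% of all genes (1.2% higher). This was Cd9, a surface tetraspanin gene, which rose (0.68, SE 0.11, edgeR adjusted p = 0.00957). It had 106, 131 and 121 CPM in CKO and 67.7 to 84.2 CPM in Ctrl. The call was lost without male CKO 2 (0.0679). In female CKO 3 rose and 3 fell, against 3.01% and 4.16% of all genes. Ccnd2, a D-type cyclin gene, rose to 17.8 and 11.8 CPM in CKO, against 2.06 to 4.36 CPM in Ctrl (2.30, SE 0.37, edgeR adjusted p = 0.00533), and was called in every alternative tried. Cdh1, which encodes E-cadherin, fell to 33.8 and 43.5 CPM, against 78.2 to 94.2 CPM in Ctrl (-1.14, SE 0.21, adjusted p = 0.00801), with the call lost without CKO 1 (0.0778). Between the sexes 8 genes were higher and 8 lower in male Ctrl, and 8 and 8 in male CKO, against 39.5% and 38.4% of all genes called, so this list had no common direction. Lhx1, a homeobox gene known as a target of GDNF signalling, was at 93.3 to 112 CPM in male Ctrl and 8.38 to 22.1 CPM in female Ctrl (2.98, edgeR adjusted p = 1.76e-05).

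Of the 13 listed subunits and partners of the CCR4-NOT deadenylase, through which Nanos2 acts, 0 were called in male CKO by edgeR, with 2 at an unadjusted p under 0.05, 2 called by limma-voom and 1 by DESeq2. In female CKO 1, the scaffold gene Cnot1, was lower (-0.67, edgeR adjusted p = 0.031). Among all genes 1.7% were called in male and 7.17% in female CKO. The call of Cnot1 was lost without any 1 of the female Ctrl libraries (0.0511 to 0.0935). Without female CKO 1 or female CKO 2 the value was -0.72 or -0.60. Between male and female Ctrl 3 were higher and 3 lower, 6 of 13 against 39.5% of all genes. Cnot3, a subunit gene, was higher by 0.54 (edgeR adjusted p = 0.0008), and the nuclease gene Cnot6l was lower (-0.69, adjusted p = 0.0013).

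Of 16 genes of PI3K, AKT and FOXO signalling, 2 were called in male CKO and 3 in female CKO, against 1.7% and 7.17% of all genes. Tsc2, a brake on mTOR, was lower in CKO of both sexes. Its log2 fold change was -0.54 in males (SE 0.1, edgeR adjusted p = 0.0176) and -0.69 in females (SE 0.12, adjusted p = 0.00692). It had 101, 97.7 and 79.7 CPM in male CKO, 127 to 141 CPM in male Ctrl, 70.3 and 79.6 CPM in female CKO and 119 to 123 CPM in female Ctrl, with no overlap. The male call was lost without CKO 2 (0.0679) or CKO 3 (0.0813), and the female call without CKO 1 (0.0574). Pik3r1, the regulatory subunit gene of PI3K, rose in male CKO to 9.23, 12.8 and 9.25 CPM, against 0.907 to 4.50 CPM in male Ctrl (1.92, SE 0.4, edgeR adjusted p = 0.0332). That call was lost without male CKO 1 (0.0505), CKO 2 (0.154), CKO 3 (0.102), Ctrl 3 (0.0861) or Ctrl 4 (0.0596). In females Pik3r1 had 6.32 and 6.62 CPM in CKO, against 1.58 to 2.98 CPM in Ctrl. This did not pass (1.65, SE 0.48, edgeR adjusted p = 0.0551). The CKO effects of the sexes on Pik3r1 differed by 0.27 (edgeR adjusted p = 0.937). In female CKO Sgk1 also rose (1.08, edgeR adjusted p = 0.0304) and Pik3cb fell (-0.57, 0.0381). The Sgk1 call was lost without female Ctrl 1 (0.0735) or Ctrl 3 (0.104). That of Pik3cb was lost without any 1 of the female Ctrl libraries (0.0639 to 0.109). Between the sexes 4 were higher and 2 lower in male Ctrl (19.4% and 20.1% of all genes). Among CKO embryos 5 were higher and 3 lower in males (19.0% and 19.4%).

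The relatives of Id4 shared its direction between the sexes. Of 6 Id and E protein genes, Id1, Id2 and Id3 were lower in male than in female Ctrl and 1 was higher. Among all genes 20.1% were called lower and 19.4% higher. Id1 had 2.97 to 4.23 CPM in male Ctrl and 82.5 to 101 CPM in female Ctrl (-4.63, SE 0.15, edgeR adjusted p = 3.85e-10). The differences of Id2 and Id3 were -3.30 and -1.71 (edgeR adjusted p = 5.53e-08 and 6.23e-06), beside -1.32 for Id4. In CKO edgeR called 0 of the 6 in either sex, against 1.7% of all genes in males and 7.17% in females. At an unadjusted p under 0.05 there were 3 in males and 1 in females (16.7% and 23.3% of all genes), limma-voom and DESeq2 each called 1 in males, and neither called any in females.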

How the data were processed

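RNA of germ cells sorted from single embryos was turned into cDNA with SMART-seq V4 from 1 ng of total RNA in 11 cycles, per the labels' protocols; this kit does not mark strand. The values used are the deposited whole-number counts of reads per Ensembl gene, 1 column per library, all of them used. Per the submitters' processing notes, the tools were featureCounts, TopHat2 2.0.11, Trimmomatic 0.33 and CASAVA 1.8.4, and the builds NCBIM37 and mm9; how reads matching several places were counted is not given in the sources used here. Symbols and exon lengths came from GENCODE M21 on another build, GRCm38, where 32919 of 37991 identifiers matched (99.5% of counts), so no coordinates of the counts are given.

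Counts were analysed with edgeR 4.0.16 (limma 3.58.1, R 4.3.3). Genes were kept by filterByExpr (minimum count 10, minimum total 15), which left 16708 genes and all 8 members. Libraries were scaled by TMM (factors 0.926 to 1.11), so that 1 CPM was 24.2 to 34.3 counts. A robust quasi-likelihood model had 1 coefficient per group over 12 libraries (8 residual degrees of freedom), and p-values were adjusted by Benjamini-Hochberg over all tested genes, with calls at an adjusted p under 0.05. Tests are two-sided. SE and 95% intervals of log2 fold changes come from the F statistic. Counting intervals and floors (3 counts) cover counting error only, since amplified reads are not independent molecules.

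The replicate was the embryo, and p-values measure the spread between these embryos, whose litters are not known. Pairs of libraries of a group differed by more than counting noise (chi-square per gene 18.6 to 74.2). The members, the gene lists and the tests were chosen with earlier results of these data known. Besides the members, up to 3 called genes with the smallest adjusted p were named per list and comparison. Ezh2, Stra8, Fgf9, Dnmt3l, Piwil4 and Nodal were named whatever their result. Not all of the named genes are described above. Alternatives were median-of-ratios scaling, library size only, no filter, at least 5 CPM in 2 libraries, the groups compared alone, a replicate block, limma-voom with quality weights, DESeq2 1.42.0, and each library left out. The edgeR step was tested on simulated data.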

Additional observations from a re-analysis of the deposited data

Results flagged for a closer look

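In 4 of the 51 genes checked, 1 of the 4 male Ctrl libraries lay far from the other 3, by Dixon's criterion (gap over range above 0.83); chance alone gives about 1 in 20. None of the 8 members was among them. Dnmt3l had 0.701 CPM in male Ctrl 1, against 0 to 0.0662 CPM in the other 3. Utf1, a chromatin gene of pluripotent cells and spermatogonia, had 656.8 CPM in male Ctrl 2, against 536 to 542 CPM. Cnot3 had 189.3 CPM in male Ctrl 1, against 153 to 158 CPM. Pik3ca, the gene of a PI3K catalytic subunit, had 120.7 CPM in male Ctrl 1, against 95.5 to 98.6 CPM.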

How the results depend on the processing

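The number of members called in female CKO (1) was 2 with the title number as replicate block, 2 in limma-voom, 3 in DESeq2 and 2 with the female groups alone, and 0 to 1 with a library left out. Genes called in male CKO (284) were 105 and 141 with the title and the column number as replicate block, 1122 in limma-voom, 990 in DESeq2 and 63 with the male groups alone, and 36 (without male CKO 2) to 502 (without male Ctrl 2) with a library left out; they were 48 without male CKO 3, 85 without male Ctrl 3 and 151 without male Ctrl 4. Genes called in female CKO (1198) were 789 with the column number as block, 2066 in limma-voom and 1989 in DESeq2, and 317 (without female CKO 2) to 691 (without female Ctrl 1) with a library left out, where a lone CKO library is taken to vary like the other groups. The difference between the CKO effects (0 genes) had 2 calls without a filter, 61 in DESeq2 and 0 to 3 with a library left out. The sex difference among CKO embryos (6411) had 4063 to 5602. Same-numbered male libraries did not deviate together (r between -0.023 and 0.049 for the 3 pairs). For the 2 female pairs r was 0.191 and -0.01. With 2 female CKO libraries, their deviations from the group mean are exact opposites, so these female values cannot show pairing. The block has no known meaning. Beside the counts above, 1 or both blocks ended the calls of Piwil4, Tsc2 and Pik3r1 in male CKO (adjusted p 0.0502 to 0.0886). The same held for Piwil4, Nrtn, Shc1, Fgfr2, Spred2, Sycp3, Sgk1 and Pik3cb in female CKO (0.0515 to 0.107). Fits of the groups compared alone ended those of Piwil4 (0.111), Tsc2 (0.0606) and Pik3r1 (0.0877) in male CKO and of Spred2 (0.0641) in female CKO.

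Directions of the members turned only in differences that were not called. Nanos2 in male CKO was 1.06 and 1.36 with the replicate blocks (title and column number), 1.13 in limma-voom and -0.71 to 0.42 with a library left out. Ret in male CKO was 0.18 and 0.13 with the blocks, 0.43 in limma-voom and -0.76 to 0.35 with a library left out. Zbtb16 in male CKO was 0.45 in limma-voom and -0.61 to 0.69 with a library left out, and between CKO males and females -1.44 to 1.14. Foxo1 in female CKO was -0.25 to 0.31, and its difference between the CKO effects -0.49 to 0.07, with a library left out; both turned without female CKO 2. The difference between the CKO effects was 0.50 for Gfra1 in limma-voom. For Id4 it was -0.06 with library size only, -0.03 with the 5 CPM filter, -0.09 with the column number as block and -0.11 to 0.22 with a library left out. Over the 8 members and 5 comparisons, 573 of the alternative values kept direction and side of the threshold, 23 turned, 12 gained and 11 lost the call; for the other named genes 1040 kept both, 11 gained and 103 lost the call.

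Scaling by library size alone moved the median of all genes by 0.113 in female CKO, -0.102 between the sexes in Ctrl and -0.181 in CKO. Higher and lower calls were then 650 and 356 in place of 503 and 695 in female CKO, 2592 and 4062 in place of 3246 and 3357 between the sexes in Ctrl, and 2214 and 4335 in place of 3172 and 3239 in CKO. It changed no member's call, and ended those of Shc1 (adjusted p = 0.0615), Spred2 (0.0974), Cnot1 (0.0668) and Pik3cb (0.0694) in female CKO. Spred2 was also lost with the 5 CPM filter (0.0584), and Nrtn (0.0682) and Sgk1 (0.0613) without a filter. Depth limits Gfra1, Zbtb16 and Nanos2 in females, which rest on at most 24 counts per library.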
